A study of Mus musculus with 3 samples.

Results

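Rny1 and Rny3 encode the mouse Y RNAs, and RefSeq lists 2 genes of this class in GRCm38.p6, both on chromosome 6. The reads described are those whose left end lies in the 10 kb window on chromosome 6 from 47730001 to 47740000, 1 of 119251 windows with a read in any library. Coordinates are those of the deposited files, counted from 1 and with chromosome naming of the mm9 assembly. The window was chosen by the measured number of reads there, the highest of any window in MEL cells, so levels in the window are given as a description with no test. It held 21087 of 823452 mapped reads in MEL, 740 of 692011 in spleen and 20 of 1143785 in testis.

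The study sequenced small RNAs from 3 libraries, 1 for each group. The MEL library is an RNA immunoprecipitate made with a rabbit polyclonal antibody against MIWI2 (PIWIL4), a protein that binds PIWI-interacting RNAs (piRNAs). MEL is a mouse erythroleukemia line (ATCC TIB-55) of erythroblasts transformed by Friend virus. The spleen library is the same kind of immunoprecipitate, from splenocytes that had not been fractionated, of C57Bl6/J mice aged 10 weeks. The testis library, from mice of the same strain and age, is no immunoprecipitate but the small RNA band near 29 nt cut from a gel. The number of animals is not given in the sources used here. An input library or control immunoprecipitate was not analysed here, so the share of Y RNA reads that were bound to MIWI2 was not measured. With 1 library a group, no difference has a replicate check, and all intervals are exact 95% intervals for counting error.

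Y RNAs are short non-coding RNAs made by RNA polymerase III. Their ends pair with each other to form a stem that the protein Ro60 binds, their last bases are a run of U that the protein La binds, and the middle of the molecule is a loop. They are known for roles in RNA quality control and in the start of DNA replication, and fragments of their 5′ and 3′ ends are common in small RNA libraries, dying cells and blood.

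The label was checked by spacing, because the gene annotation used here is of GRCm38 and no coordinates were carried from one build to the other. In GRCm38, RefSeq places Rny3 at chr6:47781624-47781724 on the plus strand and Rny1 at chr6:47788070-47788180 on the minus strand, each a single exon. The genes are transcribed toward each other, and their 5′ ends, the low end of Rny3 and the high end of Rny1, are 6556 nt apart. In the files the most frequent outer ends of the reads, the left end 47731623 and the right end 47738179, were also 6556 nt apart. With base 1 of each gene set at those ends, all but 5 MEL reads, 2 spleen reads and 0 testis reads of the window lay on the 2 genes. The reads reached from base 0 to base 113 of Rny1 and from base 0 to base 102 of Rny3, against annotated lengths of 111 and 101 nt in RefSeq and 112 and 102 nt in GENCODE. The files give no strand, so sense and antisense reads could not be told apart.

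The sequences of both genes are shown because the reads lay mostly at their 2 ends, with few in the middle. They are the GENCODE M21 transcripts (GRCm38), 5′ to 3′, with the most-read 5′ fragment and the most-read 3′ fragment in capitals. The capitals are bases 1 to 26 and 84 to 110 in Rny1 and bases 1 to 25 and 74 to 100 in Rny3. In Rny3 the 5′ stretch is the most-read interval of spleen and the 3′ stretch that of MEL.
Rny1: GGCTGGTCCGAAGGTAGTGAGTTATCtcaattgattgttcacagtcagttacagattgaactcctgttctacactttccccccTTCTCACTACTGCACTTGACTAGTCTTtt
Rny3: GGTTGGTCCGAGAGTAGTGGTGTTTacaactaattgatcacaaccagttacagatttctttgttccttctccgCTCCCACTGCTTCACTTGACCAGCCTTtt
The files hold no read sequences, so these are the annotated bases at the read positions and not bases that were read. From base 1 the genes differ first at base 3, and 19 of their first 30 bases are the same. Each capital stretch occurs exactly in the transcripts of 1 gene of GENCODE M21, Rny1 or Rny3 itself. With up to 2 mismatches the Rny1 5′ stretch also matches 5 further annotated genes (Gm22016, Gm22508, Gm23921, Gm26124 and Gm26168) and the Rny1 3′ stretch 1 further gene (Gm24379). The Rny3 stretches match no further gene. The sources do not say what was done with reads that matched more than once, and the part of such copies in the read counts was not tested.

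Rny1 held nearly all Y RNA reads of MEL, while Rny3 held most of those of spleen. Rny1 had 20948 reads in MEL, 219 in spleen and 15 in testis. These are 25439 reads per 1000000 library reads (RPM; interval 25096 to 25786), 316 (276 to 361) and 13.1 (7.34 to 21.6). Rny3 had 134 reads in MEL, 519 in spleen and 5 in testis, or 163 RPM (136 to 193), 750 RPM (687 to 817) and 4.37 RPM (1.42 to 10.2). MEL was thus the highest library for Rny1 and spleen the highest for Rny3, with testis lowest for both. No neighbouring intervals in either order overlapped, and how many of all windows are alike in this was not computed. Testis was also lowest in 242 (84.9%) of the 285 windows with at least 100 reads in both MEL and spleen. Rny1 made up 99.4% (99.2 to 99.5) of the reads on both genes in MEL, 29.7% (26.4 to 33.1) in spleen and 75% (50.9 to 91.3) in testis. With each distinct interval counted once, in place of every read, Rny1 held 68.8% of the intervals in MEL and 58.8% in spleen. Per base of annotated length, Rny1 had 229 RPM and Rny3 1.61 RPM in MEL, against 2.85 and 7.43 RPM in spleen.

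Rny1 was 80.4-fold higher in MEL than in spleen (70.4 to 92.3), and Rny3 was 4.61-fold higher in spleen than in MEL (3.80 to 5.62). The directions of the read counts were opposite for the 2 genes. With each distinct interval counted once, per distinct intervals of the library, Rny1 was 2.14-fold higher in MEL. The spleen to MEL ratio of Rny3 was then 0.721, which turns its direction. No interval was computed for this ratio, so whether the turn exceeds counting error was not tested. Distinct intervals count different pairs of ends, for Rny3 35 in MEL and 14 in spleen. They cannot tell level from variety of ends. Over testis, Rny1 was 1940-fold higher in MEL (1176 to 3466) and 24.1-fold higher in spleen (14.3 to 43.9), and Rny3 was 37.2-fold (15.6 to 117) and 172-fold (73.0 to 531) higher. The testis folds rest on 15 and 5 testis reads and include the gel selection near 29 nt. RPM counts reads of every length in the library total, and those up to 17 nt were 73.2% of the spleen library and 34.3% of the MEL library. Among reads of at least 18 nt alone the folds were 33.0 for Rny1 in MEL over spleen and 11.2 for Rny3 in spleen over MEL. Among reads of 20 to 27 nt, each as a share of library reads of that length, they were 11.2 and 29.5. Likewise among reads of 24 to 32 nt they were 74.2 and 15.8. Over the whole window MEL was 23.9-fold above spleen and 1465-fold above testis, and spleen was 61.2-fold above testis. By distinct intervals these folds were 1.82, 16.02 and 8.79. Windows that were likewise at least 4-fold higher with at least 100 RPM made up 0.478% of 108997 windows for MEL over spleen, 0.849% of 88903 for MEL over testis and 1.09% of 75237 for spleen over testis. The window was chosen on these levels, so nothing is read from its place among them.

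The window held 6.74% (6.65 to 6.83) of all 24 to 32 nt reads of MEL, the length range of piRNAs, and ranked first of 14326 windows with such reads. It held 0.707% (0.644 to 0.774) of those of spleen, where it ranked 11 of 3906. In testis it held 0.00187% (0.00114 to 0.00288), or 20 of 1071061 reads, and ranked 704 of 18626. With each distinct interval counted once, the order of MEL and spleen turned, with 0.119% of such intervals in MEL and 0.215% in spleen. Of the 19370 MEL reads in this range 19256 lay on Rny1, and of the 462 spleen reads 403 lay on Rny3.

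**Figure D1:**
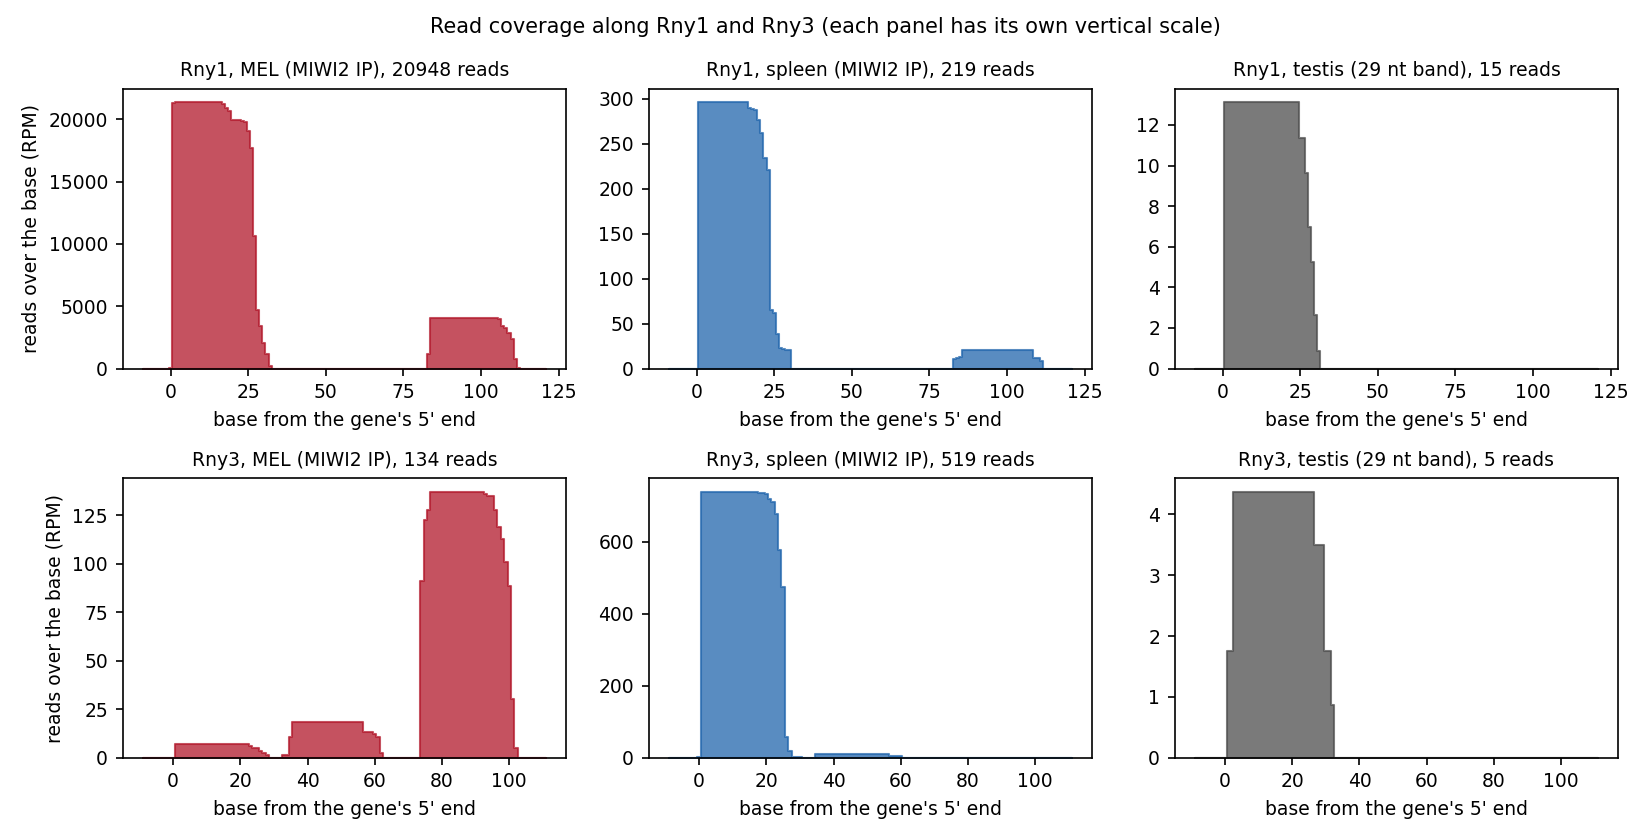
Reads over each base (RPM, vertical axis, own scale in each panel) along Rny1 (top) and Rny3 (bottom) in MEL, spleen and testis, by base from the gene's 5′ end (horizontal axis). Reads of Rny1 cover its first bases in the 3 libraries and its last bases in MEL and spleen, while the 134 Rny3 reads of MEL lie mostly at the 3′ end and the 519 of spleen at the 5′ end.

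The reads fell into 5′ fragments (first base at most 5), 3′ fragments (last base within 15 nt of the RefSeq end) and a few internal reads, classes set after the values were seen. Rny1 reads, counted with their copies, were mostly 5′ fragments in every library. They numbered 17590 of 20948 in MEL, or 84.0% (83.5 to 84.5), 205 of 219 in spleen, or 93.6% (89.5 to 96.5), and 15 of 15 in testis. Of distinct Rny1 intervals, each counted once, 45.5% in MEL and 70.0% in spleen were 5′ fragments, so the majority was lost in MEL. The 3′ fragments of Rny1 numbered 3355 in MEL, or 16.02% (15.5 to 16.5), and 14 in spleen, or 6.39% (3.54 to 10.5). In testis there were 0, where 3 reads would be 20% of the 15. Internal Rny1 reads numbered 3 in MEL and 0 in the other libraries.

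Rny3 gave opposite ends in the 2 immunoprecipitates. In MEL 113 of the 134 Rny3 reads, or 84.3% (77.0 to 90.03), were 3′ fragments and 6, or 4.48% (1.66 to 9.49), were 5′ fragments. In spleen 512 of 519, or 98.7% (97.2 to 99.5), were 5′ fragments and 0 were 3′ fragments (exact upper bound 0.708%, while 3 reads would be 0.578%). The 5 testis reads were all 5′ fragments. The 5′ fragment of Rny3 was 102-fold higher in spleen than in MEL (46.3 to 278), with 740 and 7.29 RPM. The 3′ fragment of Rny3 had 137 RPM in MEL and 0 reads in spleen. With spleen set at 3 reads the fold would be 31.7, a value that depends on this floor and is no measured fold. The exact interval of the spleen to MEL ratio was 0 to 0.0395. Internal Rny3 reads, with first bases 33 to 36 and last bases 56 to 62, numbered 15 in MEL and 7 in spleen, 18.2 RPM (10.2 to 30.04) and 10.1 RPM (4.07 to 20.8), and these intervals overlapped.

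Rny1 did not show that switch of ends. Both of its ends were higher in MEL, the 5′ fragment 72.1-fold (62.8 to 83.2) and the 3′ fragment 201-fold (120 to 369, from 3355 and 14 reads). With reads of every length counted, the share of 3′ fragments was higher in MEL than in spleen for both genes. Among 24 to 32 nt reads the order of the Rny1 5′ shares turned, with 84.7% in MEL and 76.3% (45 of 59 reads) in spleen. No interval was computed for these shares, so whether the turn exceeds counting error was not tested.

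**Figure D2:**
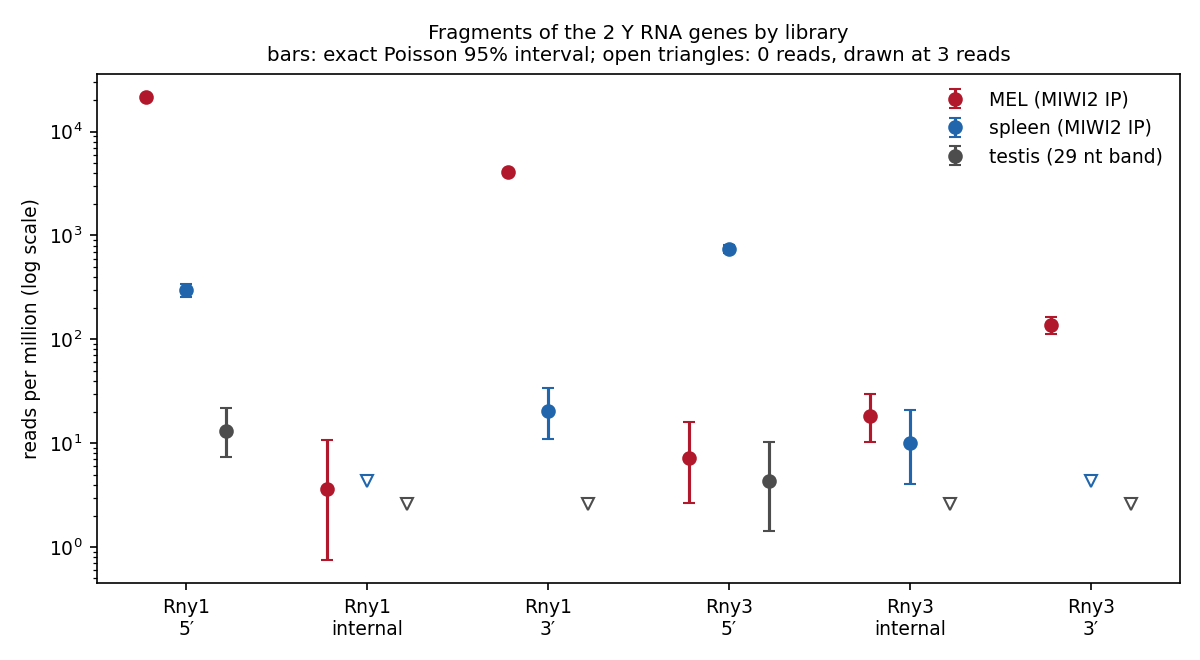
Level of each fragment (RPM, log scale) for the 5′, internal and 3′ fragments of Rny1 and Rny3 in MEL, spleen and testis, with exact Poisson 95% intervals and libraries with 0 reads drawn as open triangles at 3 reads. MEL is highest for both ends of Rny1 and for the 3′ end of Rny3, and spleen is highest for the 5′ end of Rny3 at 740 RPM.

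The 5′ ends of the 5′ fragments were nearly fixed and their 3′ ends were not. In MEL 17558 of 17590 Rny1 5′ fragments, or 99.8% (99.7 to 99.9), started at base 1, and 16 started 1 nt before it. In spleen 205 of 205 Rny1 and 511 of 512 Rny3 5′ fragments started at base 1. In testis 15 of 15 Rny1 fragments started there, whereas 3 of the 5 Rny3 reads started at base 3 and 2 at base 1. Because Rny1 lies on the minus strand, this shared 5′ end is the right end 47738179, and the left ends of Rny1 reads are the 3′ ends of the fragments.

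The last base of the Rny1 5′ fragment differed between MEL and spleen. In MEL it was most often base 26 (5778 reads, 32.8%) or base 27 (4940 reads, 28.1%). In spleen it was most often base 23 (108 of 205 reads, 52.7%, 45.6 to 59.7). The interval from base 1 to base 26, with most Rny1 reads in MEL, had 5764 reads in MEL, 11 in spleen and 2 in testis. That from base 1 to base 23, with most in spleen, had 39 reads in MEL, 108 in spleen and 0 in testis. The most-read fragments of the libraries are shown to compare their ends, with the bases that only the MEL fragment has in capitals.
Rny1 5′ fragment in MEL: ggctggtccgaaggtagtgagttATC
Rny1 5′ fragment in spleen: ggctggtccgaaggtagtgagtt
Of the MEL 5′ fragments of Rny1, 0.665% (0.550 to 0.797) ended at bases 20 to 23, against 71.2% (64.5 to 77.3) in spleen. Over whole libraries the shares ran the other way, since reads of 20 to 23 nt made up 19.5% of MEL and 4.67% of spleen. MEL had a second, smaller group that ended at bases 16 to 19, with 1145 reads or 6.51% (6.15 to 6.88) and most at base 19 (546 reads). A group of the same ends held 14 spleen reads, 6.83% (3.78 to 11.2), and 0 testis reads.

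In spleen the Rny3 5′ fragment ended most often at base 25, with 288 of 512 reads, or 56.3% (51.8 to 60.6), followed by base 24 (71 reads) and base 23 (69 reads). Within the spleen library the most frequent last bases of the 2 genes were thus 2 nt apart, base 23 in Rny1 and base 25 in Rny3. The 6 MEL reads of this fragment ended once each at bases 22, 23, 25, 26, 27 and 28. In testis the Rny1 5′ fragments ended at bases 24 to 31 with no more than 3 reads at any base, and the Rny3 reads at bases 26, 29, 31 and 32.

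**Figure D3:**
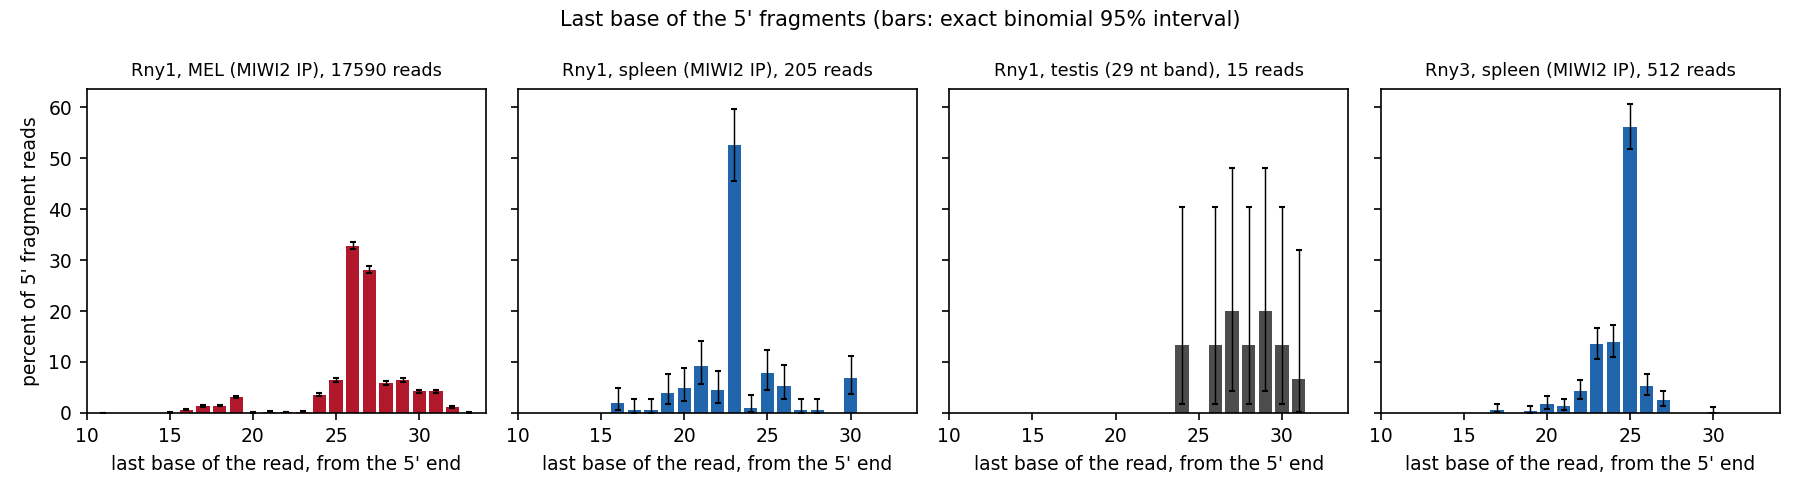
Share of 5′ fragment reads (vertical axis, percent, with exact binomial 95% intervals) by the last base of the read (horizontal axis) for Rny1 in MEL, spleen and testis and for Rny3 in spleen. The Rny1 maximum is at bases 26 and 27 in MEL and at base 23 in spleen, and the Rny3 maximum in spleen is at base 25.

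The 3′ fragments of the 2 genes had like starts in MEL. Those of Rny1 started at base 84 (2352 of 3355 reads, 70.1%, 68.5 to 71.7) or base 83 (960 reads), 98.7% together. Those of Rny3 started at base 74 (75 of 113 reads, 66.4%, 56.9 to 74.99) or base 75 (26 reads), 89.4% together. In both genes the most frequent start left 28 nt to the RefSeq end of the gene, itself included. The last base of Rny1 3′ fragments was most often base 110 (1302 reads, 38.8%), then 111 (584 reads), 106 (501 reads), 109 (421 reads) and 108 (358 reads). That of Rny3 3′ fragments was most often base 100 (48 reads, 42.5%), then 101 (21 reads). Bases 110 and 100 both lie in the run of T, U in the RNA, that ends each sequence. The 14 spleen 3′ fragments of Rny1 started at bases 83 (7 reads), 86 (5 reads), 84 and 85 (1 read each).

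Much of the covered ends is predicted to pair. The minimum free energy fold of the annotated sequence joined bases 1 to 21 of Rny1 to bases 86 to 108 in 17 pairs, and bases 1 to 23 of Rny3 to bases 73 to 98 in 21 pairs. The pairs with both bases in capitals numbered 17 of 17 in Rny1 and 20 of 21 in Rny3, where base 73 lies just outside the 3′ stretch. The predicted energies were -34.3 kcal/mol for Rny1 and -27.1 kcal/mol for Rny3. This is a property of the annotated sequence, and whether the fragments were paired in the cells was not measured.

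By left end, as the rule counts them, stacks were left ends with at least 1% of the library's window reads and at least 10 reads. MEL had 16 stacks with 96.4% of its window reads, all on Rny1. Spleen had 7 with 93.1%, of which 6 were on Rny1 and 1 on Rny3. Left ends are last bases of Rny1 fragments but first bases of Rny3 fragments, so stack numbers of the 2 genes are not alike in kind. The most-read MEL stacks were 47738154 (5778 reads, 7017 RPM), 47738153 (4940 reads, 5999 RPM), 47738070 (1302 reads, 1581 RPM), 47738151 (1126 reads, 1367 RPM) and 47738155 (1124 reads, 1365 RPM). The first of them had 11 reads in spleen and 2 in testis, and the third had 2 and 0. Of the 15 distances between neighbouring MEL stacks 12 were 1 nt, and the largest was 75 nt, between the 3′ and the 5′ fragments. The most-read left ends of these fragments were 84 nt apart and their most frequent first bases 83 nt apart.

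The most-read spleen stack was 47731623, base 1 of Rny3, with 511 reads or 738 RPM. It had 6 reads in MEL, where it was no stack, and 2 in testis. The next, 6534 nt away on Rny1, was 47738157 with 108 reads or 156 RPM, against 39 reads in MEL and 0 in testis. Those after it were 47738159 (19 reads), 47738155 (16 reads) and 47738150 (14 reads). The spleen and MEL lists shared 3 stacks, 18.8% of the 16 and 42.9% of the 7. Testis, with 20 reads on 9 left ends, had 0 stacks, and its most-read left ends, 47731625, 47738151 and 47738153, had 3 reads each.

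The libraries shared many ends, in different proportions. Of the spleen window reads 99.9% (99.2 to 100) had a left end that MEL also had, and of the testis reads 85.0% (62.1 to 96.8). MEL had many more window reads and 46 distinct left ends, against 21 in spleen and 9 in testis, so a shared end in MEL can be 1 read among 21087. In the other direction, spleen also had the left ends of 84.3% (83.8 to 84.8) of MEL window reads, and testis those of 71.2% (70.5 to 71.8). Counting only left ends with at least 3 reads in the other library, these shares were 44.4% and 28.8%. By right end 99.1% (98.99 to 99.2) of the MEL reads had an end found in spleen. The fixed 5′ end of Rny1, a right end, held 17558 of those reads, and the 3′ fragment starts at bases 83 and 84, also right ends, held 3312. Spleen had 7 reads that started at base 83 and 1 at base 84, against 960 and 2352 in MEL. On Rny3 alone the first base was shared with spleen for 10.4% (5.83 to 16.9) of 134 MEL reads, and with MEL for 99.8% (98.9 to 100) of 519 spleen reads. In testis the 15 Rny1 reads used 7 intervals, of which 7 were found in MEL and 5 in spleen.

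Read lengths in the window differed from those of the libraries. In MEL the 24 to 32 nt range held 91.9% (91.5 to 92.2) of the window reads against 34.9% of the library, and 26 and 27 nt alone held 58.5% (57.8 to 59.2) against 14.8%. In spleen lengths of 24 to 32 nt made up 62.4% (58.8 to 65.9) of the window against 9.45% of the library, and lengths of 20 to 23 nt 34.7% (31.3 to 38.3) against 4.67%. The shortest reads, up to 17 nt, were 1.35% (0.650 to 2.47) of the spleen window reads. By gene, 77.6% of the spleen Rny3 reads and 26.9% of the spleen Rny1 reads were 24 to 32 nt long. In testis 20 of 20 window reads fell in the 24 to 32 nt range, and 45% (23.1 to 68.5) were 29 to 32 nt long against 75.2% of the library. The part of the gel selection in the testis lengths was not tested.

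**Figure D4:**
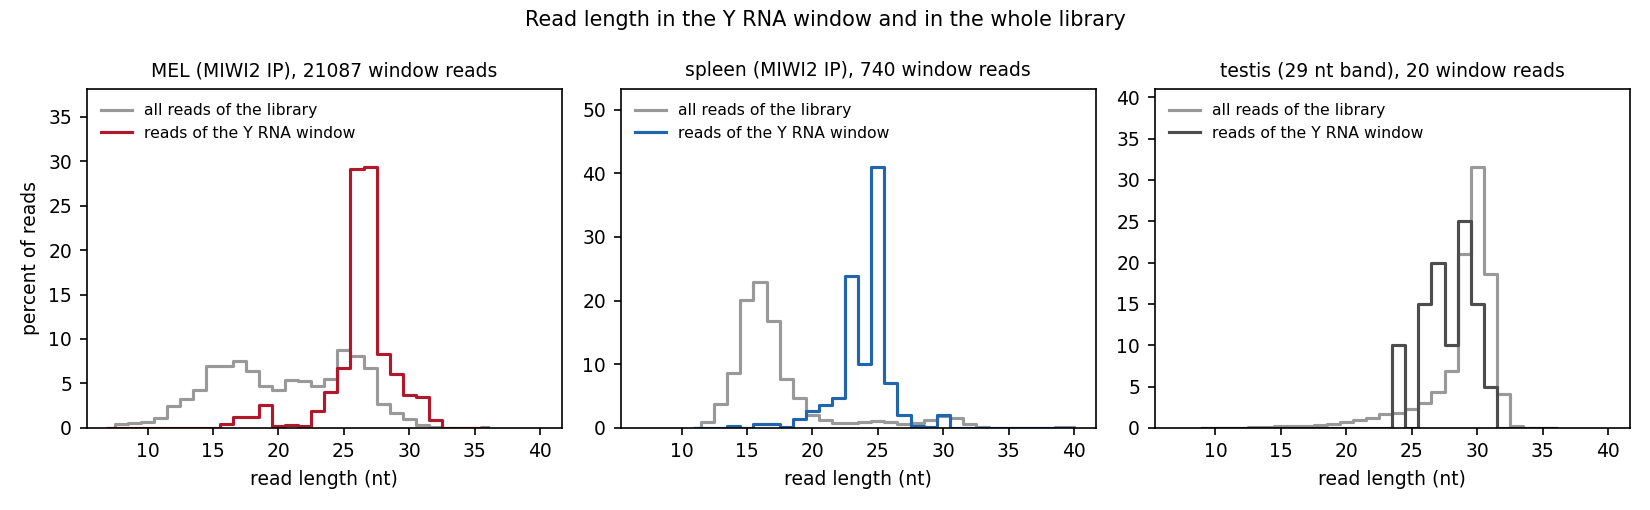
Share of reads (vertical axis, percent, own scale in each panel) by read length (horizontal axis, nt) for the Y RNA window (coloured line) and all reads of the library (grey line) in MEL, spleen and testis. The window reads peak at 26 and 27 nt in MEL and at 25 and 23 nt in spleen, where the library peaks at 16 nt.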

How the data were processed

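Small RNA reads of 3 libraries were analysed. The deposited files list the chromosome, start and end of each mapped read, with copies on repeated lines and no strand, sequence, count or score. Per the submitters' processing notes, the authors' aligner was Bowtie 0.12.7. Not given in the sources used here are its options, trimming, the handling of repeated matches and the genome build. From the lines, reads were counted per window, left end, right end and length, and scaled to 1000000 reads (RPM). Depth was 823452 reads in MEL, 692011 in spleen and 1143785 in testis, where 3 reads correspond to 3.64, 4.34 and 2.62 RPM.

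Base 1 of each gene was set at the most frequent outer read end. Reads lying within 10 nt of a gene's annotated stretch were assigned to it. Shares have Clopper-Pearson intervals, RPM exact Poisson intervals and folds the exact conditional interval, all 95%. Without molecular identifiers, PCR copies count as reads, and intervals and floors cover counting error only. RNAfold of ViennaRNA 2.7.2 gave the folds, and Python 3.11.15 with pandas 2.3.3 and scipy 1.17.1 the rest. The functions recovered 11 of 11 planted quantities in simulated data. The members, lists and rules were chosen with earlier results of these data known. Named positions are the stacks, of which the 5 with most reads per library are described, and the 5 windows closest in MEL read length. Other polymerase III genes and microRNA markers of the cell types were not analysed here, since the annotation is of another build, so the labelled tissues were not checked against markers.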

Additional observations from a re-analysis of the deposited data

How the results depend on the processing

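With 1 library per group, none was left out in turn. No paired analysis was possible because each group has a single library. Of 122 alternative values, 53 stayed within counting error or within 1.5 times of a count, 68 moved and 1 turned its direction, the Rny3 fold by distinct intervals. Counting distinct intervals, which drops all copies, also turned the order of values named below. The alternative values have no intervals of their own, so whether any turn exceeds counting error was not tested. The testis values rest on 20 reads, and RPM depends on how many short reads a library holds. The cause of these moves was not tested, beyond fewer reads where copies or lengths were left out.

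With each distinct interval counted once, the window level was 632 (MEL), 347 (spleen) and 39.5 (testis) per 1000000 intervals, so MEL stayed above spleen. The window held 0.119%, 0.215% and 0.00447% of 24 to 32 nt intervals in the same order, so in this share MEL was no longer above spleen. Of its intervals 62.6% in MEL and 54.3% in spleen were 24 to 32 nt. In MEL the Rny3 bases 0 to 62 held 11.3%, Rny3 bases 74 to 102 19.1%, Rny1 bases 76 to 113 33.9% and Rny1 bases 0 to 33 30.4% of intervals, which put the 3′ end of Rny1 above its 5′ end. In spleen Rny3 bases 0 to 62 and Rny1 bases 0 to 33 each held 40% and Rny1 bases 76 to 113 held 17.1%.

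With reads of at least 18 nt, the level was 38314 RPM (MEL) and 3934 RPM (spleen), the share of such reads 3.83% and 0.393%, and 72.4% of MEL reads had a testis left end. With 24 to 32 nt reads, the level was 67398 and 7068 RPM and the folds 9.54 (MEL over spleen), 3609 (MEL over testis) and 379 (spleen over testis). Rny3 bases 0 to 62 then held 87.2% in spleen, Rny1 bases 76 to 113 15.2% in MEL, and Rny1 bases 0 to 33 84.2% (MEL) and 9.74% (spleen). Taking 26 to 31 nt instead, the library share was 9.98% (MEL) and 0.175% (spleen), and the window share 80.1% and 11.5%.

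Within 2 nt, 100% of spleen and 100% of testis reads had a MEL left end, and 99.2% and 77.7% of MEL reads a spleen and a testis one. By right ends, 87.4% of spleen reads had a MEL end, and 99.1% and 83.3% of MEL reads a spleen and a testis end. With both ends, 86.9% of spleen reads matched MEL and 80.8% of MEL reads matched spleen. Ends with at least 3 reads in the other library gave 44.4% for MEL in spleen and 28.8% for MEL in testis. Stacks of at least 5% numbered 5 in MEL and 2 in spleen, and those of 10 reads alone 27 in MEL. At 50 RPM, 794, 1201 and 1440 windows passed for MEL over spleen, MEL over testis and spleen over testis.

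Further alternatives were chosen after seeing the data. By distinct intervals, the window folds were 1.82 (MEL over spleen), 16.02 (MEL over testis) and 8.79 (spleen over testis), Rny1 in MEL over spleen was 2.14-fold, and Rny3 in spleen over MEL had a ratio of 0.721, lower in spleen. Also by distinct intervals, Rny1 held 68.8% of both genes' intervals in MEL and 58.8% in spleen, so Rny3 no longer held most in spleen. The 5′ share was then 17.1% of Rny3 and 45.5% of Rny1 in MEL, no longer most of Rny1, and 85.7% and 70.0% in spleen. With 24 to 32 nt reads, Rny1 held 12.8% in spleen, and its 5′ share was 84.7% (MEL) and 76.3% (spleen). The order of these 5′ shares was opposite to that of all reads, 84.0% (MEL) and 93.6% (spleen). The spleen share among 24 to 32 nt reads rests on 59 reads and has no interval, so its order to MEL is not settled. Rny3 in spleen over MEL was 11.2-fold at 18 nt or more, 15.8-fold at 24 to 32 nt and 29.5-fold at 20 to 27 nt. Rny1 in MEL over spleen was 33.0-fold at 18 nt or more, 74.2-fold at 24 to 32 nt and 11.2-fold at 20 to 27 nt.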

Other observations

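Reads of the window outside both genes were few. In MEL 2 reads of 26 nt lay at chr6:47736272-47736297, between the genes. Beyond the 5′ end of Rny1, MEL had 3 reads of 13 or 15 nt and spleen 2 reads of 14 nt, near 47738494.

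Among 285 windows with at least 100 reads in both MEL and spleen, the 5 with the MEL read length profile closest to the Y RNA window are given by position, since genes could not be assigned in the files' build. The distance is the summed absolute difference, divided by 2, of the shares of reads at each length, and its median over the 285 windows was 0.976. The window on chromosome 5 from 115940001 had a distance of 0.186, with MEL at 1724 RPM, spleen at 184 and testis at 51.6. Its neighbour from 115930001 had a distance of 0.193 and 1678, 733 and 47.2 RPM in the same order. The window on chromosome 9 from 67570001 had a distance of 0.235 and levels of 1867, 280 and 18869 RPM, testis being highest. The window on chromosome 12 from 72070001 had a distance of 0.239 and 1115, 588 and 4.37 RPM. The window on chromosome 9 from 90020001 had a distance of 0.254 and 1163, 548 and 4.37 RPM. Of the 285 windows 82 (28.8%) were higher in MEL than in spleen, as were these 5, and 242 (84.9%) were lowest in testis, as were 4 of the 5. The 5 windows were picked by their MEL reads, and nothing is read from these counts.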
